A study of Homo sapiens with 2 samples.

Results

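Glycolysis and the transcriptional response to low oxygen were examined in single-cell RNA-seq of 2 Ewing sarcoma cell lines, CHLA9 and TC71. The 36 genes examined were a given list of glycolytic enzymes, glucose and lactate carriers and hypoxia-induced genes, and they were all found among the 33538 genes of both deposited count tables. They comprised 17 glycolysis enzymes, 4 transporters, 13 hypoxia-induced genes, and HIF1A and MXD4, which were described apart. Ewing sarcoma is a bone and soft tissue cancer driven by a fusion of EWSR1 with an ETS gene, usually FLI1. The medium of CHLA9 was IMDM, to which 20% fetal bovine serum and an insulin, transferrin and selenite supplement were added, and that of TC71 was RPMI-1640 with 10% fetal bovine serum. The labels name no treatment and no low-oxygen culture, both lines were kept in room air enriched with CO2, and each gave 1 library. Line, medium and library therefore cannot be told apart, no test between the lines was possible, and every interval given covers counting error only.

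Glycolysis splits glucose into pyruvate, and lactate dehydrogenase turns pyruvate into lactate that leaves the cell. When oxygen falls, prolyl hydroxylases stop marking the hypoxia-inducible factor HIF1A for degradation, and the stabilised protein, paired with ARNT, binds short ACGTG or GCGTG motifs and raises transcription of glycolytic enzymes and of genes such as BNIP3, PDK1 and VEGFA. HIF1A is set mainly by protein stability, so its mRNA need not follow its activity. Many tumours also run glycolysis in the presence of oxygen.

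Promoters of 31 of the 36 genes were found in RefSeq (GRCh38.p14), and the 250 bases before the start site of each were searched on both strands. The motif ACGTG was present in 15 of these 31 windows and in 18.7% of 27305 promoters of all genes, whereas GCGTG was present in 9 of 31 and in 31.9% of all promoters. ACGTG or GCGTG was found in 10 of 17 glycolysis enzymes, 7 of 10 hypoxia-induced genes and neither of the 2 transporters with a sequence, against 43.1% of all promoters. The palindrome CACGTG, which counts as an ACGTG match on both strands, was present in 6 of 31 windows and in 6.49% of all promoters. Sequences are printed for BNIP3, PGK1 and LDHA, whose UMIs moved together across TC71 cells (given after the cell cycle), and for LDHB, whose rank correlation (Spearman's rho) across TC71 cells was -0.00345 with BNIP3 but 0.0810 with LDHA and 0.0513 with PGK1. These genes were picked after their values were seen. They read 5′ to 3′ on the strand of the gene, and capitals mark every match, with CACGT and CACGC being matches on the opposite strand.
BNIP3, chr10:131981924-131982173, minus strand: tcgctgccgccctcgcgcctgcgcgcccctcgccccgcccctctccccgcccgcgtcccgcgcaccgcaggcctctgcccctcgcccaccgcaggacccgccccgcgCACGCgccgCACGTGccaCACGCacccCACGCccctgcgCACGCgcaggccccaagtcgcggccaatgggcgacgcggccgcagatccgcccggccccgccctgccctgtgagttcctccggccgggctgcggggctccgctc
LDHA, chr11:18394313-18394562, plus strand: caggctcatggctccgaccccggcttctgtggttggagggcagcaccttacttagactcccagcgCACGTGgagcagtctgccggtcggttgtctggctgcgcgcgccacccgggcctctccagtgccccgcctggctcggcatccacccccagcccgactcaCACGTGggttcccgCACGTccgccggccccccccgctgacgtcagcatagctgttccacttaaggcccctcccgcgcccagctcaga
PGK1, chrX:78103998-78104247, plus strand: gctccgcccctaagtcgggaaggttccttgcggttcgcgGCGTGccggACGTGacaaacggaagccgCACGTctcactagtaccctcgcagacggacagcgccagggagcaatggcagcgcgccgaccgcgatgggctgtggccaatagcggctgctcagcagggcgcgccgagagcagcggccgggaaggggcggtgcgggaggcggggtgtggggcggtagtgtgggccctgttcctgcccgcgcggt
LDHB, chr12:21657843-21658092, minus strand: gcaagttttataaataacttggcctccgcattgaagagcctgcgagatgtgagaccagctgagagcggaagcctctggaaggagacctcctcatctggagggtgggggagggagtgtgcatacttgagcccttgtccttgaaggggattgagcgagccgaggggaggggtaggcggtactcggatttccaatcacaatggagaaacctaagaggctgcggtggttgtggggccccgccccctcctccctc
The window of BNIP3 held 6 matches, that of LDHA 5, that of PGK1 3 and that of LDHB 0. The other windows with 0 matches were those of HK1, PFKM, PFKP, TPI1, PGAM1, PKM, SLC2A1, SLC16A3, PDK1, P4HA2 and EGLN3. A match describes these letters only, and factor binding was not measured.

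After removal of barcodes with fewer than 5000 UMIs, fewer than 2000 genes or more than 15% mitochondrial UMIs, 4524 of 5077 CHLA9 barcodes and 1729 of 8468 TC71 barcodes were kept. A UMI is a tag that counts each captured transcript once, whatever its length. Median depth was 34656 UMIs per CHLA9 cell and 33370 per TC71 cell, and the median mitochondrial share was 7.59% and 9.05%. Levels are given as CPM, the UMIs of a gene per 1000000 UMIs summed over the kept cells of a line, and rest on 174975302 UMIs in CHLA9 and 58355173 in TC71. Of 8 Ewing sarcoma markers, 7 reached 10 CPM in CHLA9, with NKX2-2 at 9.89 CPM, and 8 did so in TC71. Of 11 markers of leukocytes, endothelium, fibroblasts and epithelium, 4 reached 10 CPM in CHLA9 and 3 in TC71, the highest being the keratin KRT18 (118 and 296 CPM). The others were the fibroblast markers COL1A1 (56.0 and 10.2 CPM), COL3A1 (23.0 and 10.6 CPM) and, in CHLA9 only, DCN (13.6 and 2.86 CPM). The leukocyte gene CD3E was at 0 in both lines. Barcodes shared by the libraries numbered 16, of which 3 were kept in both.

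The enzymes of glycolysis were strongly expressed in both lines, and their summed level was 7648 CPM in CHLA9 (95% Poisson interval 7635 to 7660) against 8076 CPM in TC71 (8053 to 8100). Most single enzymes differed by less than 2-fold. With no limit on the level, 35 of the 36 genes had at least 20 UMIs in the libraries together, and 3 were at least 2-fold higher in CHLA9 and 8 at least 2-fold higher in TC71, where 23.5% and 15.6% of 17242 genes were. Among the 26 genes that reached 10 CPM in a line, 1 was at least 2-fold higher in CHLA9 and 3 in TC71, beside 16.3% and 8.8% of 9258 such genes. The median log2 ratio of TC71 over CHLA9 was 0.16 over these 26 genes and -0.21 over all such genes.

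Along the pathway, the first step showed the widest gap between the lines among the enzymes. Hexokinase traps glucose in the cell as glucose 6-phosphate, and the isozyme HK1 had 26 UMIs in CHLA9 and 406 in TC71, or 0.149 CPM (0.0971 to 0.218) and 6.96 CPM (6.30 to 7.67). HK1 was thus 46.8-fold higher in TC71 (31.5 to 72.6). HK2, the isozyme found in many tumours, was at 8.54 and 15.3 CPM. Both hexokinases were low beside the enzymes further along the pathway. Glucose 6-phosphate isomerase (GPI) was at 80.7 and 122 CPM.

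Phosphofructokinase commits sugar to glycolysis, and its muscle type gene PFKM was at 25.2 CPM (24.5 to 26.0) in CHLA9 against 62.1 CPM (60.1 to 64.2) in TC71, a 2.46-fold difference (2.36 to 2.57). The platelet type PFKP was at 84.1 CPM in both lines, and the liver type PFKL at 33.9 and 32.9 CPM. PFKM was the only glycolysis enzyme of at least 10 CPM that was 2-fold apart. Aldolase, which cleaves the sugar, was low in both lines, with ALDOA at 17.7 and 17.3 CPM and ALDOC at 1.05 and 1.23 CPM. ALDOA overlaps another annotated gene on its own strand, and reads that match more than 1 gene were not counted, so the ALDOA level is uncertain.

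The enzymes that handle triose intermediates were among the most abundant of the 36 genes, and they leaned in both directions. Triose phosphate isomerase (TPI1) was at 618 and 421 CPM, and GAPDH, which forms NADH, was at 2456 and 1546 CPM. Phosphoglycerate kinase (PGK1), which makes ATP, was lower in CHLA9 (300.4 CPM) than in TC71 (479.7 CPM), with a ratio of 1.60. Phosphoglycerate mutase (PGAM1) was at 474 and 596 CPM. Enolase 1 (ENO1) was nearly level at 1270 and 1227 CPM, and its neuronal counterpart ENO2 was at 30.1 and 24.3 CPM. Pyruvate kinase (PKM) was at 472 and 617 CPM. TPI1 and GAPDH were thus higher in CHLA9, by 1.47-fold and 1.59-fold, while PGK1, PGAM1 and PKM were higher in TC71. GAPDH, PGK1, PGAM1 and LDHA have many processed pseudogenes, which can take up their reads.

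Lactate dehydrogenase was high in both lines, and both of its subunits were higher in TC71. LDHA, the subunit that favours making lactate, was at 880.0 CPM (876 to 884) in CHLA9 against 1225 CPM (1216 to 1234) in TC71. LDHB, the subunit that favours using lactate, was at 896 CPM (892 to 901) and 1599 CPM (1589 to 1610). The ratios were 1.39 for LDHA and 1.78 for LDHB. These differences were far wider than counting error, but no second library shows how much 2 cultures of a line differ.

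The carriers differed in kind. The lactate exporter SLC16A3 (MCT4), a HIF target, had 2204 UMIs in CHLA9 and 34 in TC71, or 12.6 CPM (12.1 to 13.1) and 0.583 CPM (0.403 to 0.814), and was 21.6-fold higher in CHLA9 (15.4 to 31.3). The high-affinity glucose carrier SLC2A3 (GLUT3) went the other way, with 39 UMIs in CHLA9 and 321 in TC71, and was 24.7-fold higher in TC71 (17.7 to 35.4). The general carriers were close: SLC2A1 (GLUT1) was at 12.96 and 12.15 CPM, and SLC16A1 (MCT1) at 70.6 and 72.9 CPM. Summed over the 4 transporters, the level was 96.3 and 91.2 CPM.

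**Figure D1:**
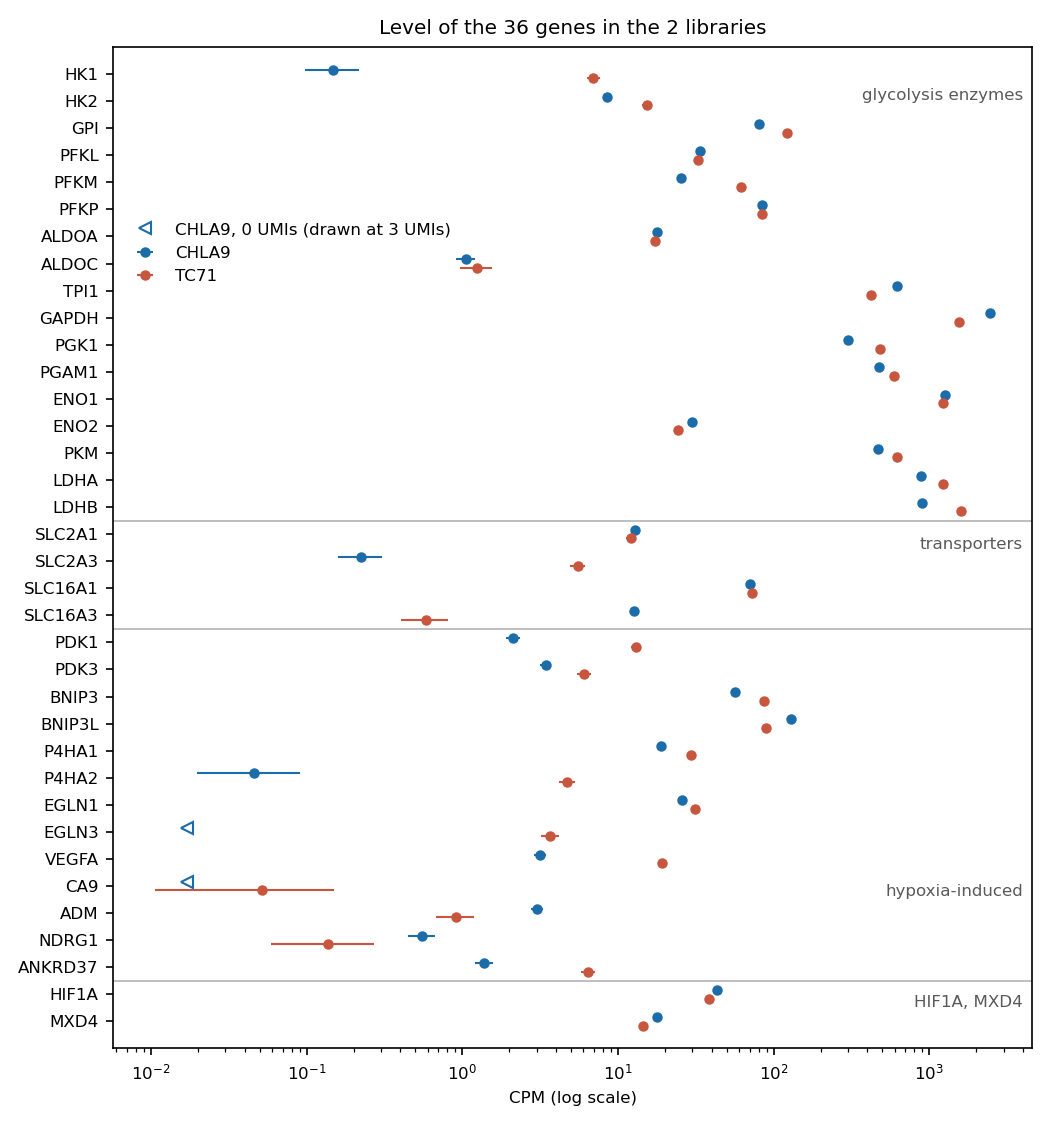
Level of each of the 36 genes in CHLA9 (blue) and TC71 (red), in CPM on a log axis, with 95% Poisson intervals. Most glycolysis enzymes sit close together in both lines, while HK1, SLC2A3, P4HA2 and EGLN3 lie far to the left in CHLA9 and SLC16A3 does so in TC71.

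Hypoxia-induced genes were expressed at low levels, summing to 244 CPM (242 to 246) in CHLA9 against 291 CPM (287 to 296) in TC71, and BNIP3 and BNIP3L made up most of this. BNIP3, a mitophagy receptor, was at 56.2 and 86.6 CPM, whereas its relative BNIP3L was at 129 and 89.8 CPM. Pyruvate dehydrogenase kinase 1 (PDK1), which keeps pyruvate out of the mitochondria, had 371 UMIs in CHLA9 and 760 in TC71, or 2.12 and 13.02 CPM, and was 6.14-fold higher in TC71 (5.42 to 6.97). VEGFA, the angiogenic growth factor, was at 3.16 CPM (2.90 to 3.44) and 19.3 CPM (18.2 to 20.5), 6.11-fold higher in TC71 (5.51 to 6.78). PDK3 was at 3.42 and 6.03 CPM. Detection differed among these genes: at 10000 UMIs, BNIP3L had a UMI in 72.3% of CHLA9 and 58.1% of TC71 cells, but VEGFA in 2.59% and 16.4%.

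The oxygen-sensing and the collagen-modifying hydroxylases each had a gene found in both lines and a gene seen mainly in TC71. EGLN1, the main HIF prolyl hydroxylase, was at 25.9 and 31.4 CPM. EGLN3, itself HIF-induced, had 0 UMIs in CHLA9 (interval up to 0.0211 CPM) and 214 in TC71 (3.67 CPM, 3.19 to 4.19). With the CHLA9 count set to 3, the ratio was 214. The collagen prolyl hydroxylase P4HA1 was at 19.0 and 29.4 CPM, while P4HA2 had 8 UMIs in CHLA9 and 274 in TC71, a 103-fold difference (51.4 to 240). ANKRD37, another HIF target, was at 1.38 and 6.41 CPM, 4.65-fold higher in TC71 (3.95 to 5.49).

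The hypoxia-induced genes did not all lie on the TC71 side. The vasodilator peptide gene ADM was 3.33-fold higher in CHLA9 (2.51 to 4.50), at 3.02 and 0.908 CPM. NDRG1 was 4.00-fold higher in CHLA9 (1.95 to 9.54), at 0.549 CPM against 8 UMIs in TC71. CA9, the carbonic anhydrase widely used as a marker of tumour hypoxia, had 0 UMIs in CHLA9 (interval up to 0.0211 CPM) and 3 UMIs in TC71. HIF1A itself was at 43.1 and 38.2 CPM, and MXD4, a MAX-binding repressor listed with the hypoxia genes, at 17.7 and 14.6 CPM. The direction of 6 genes that were close in both lines (PFKL, PFKP, ALDOA, ENO1, SLC2A1 and SLC16A1) depended on the scaling or the cells kept. Scaling by the median of ratios moved all values by 0.16 on the log2 scale towards TC71.

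Isozyme choice was then compared as the share of each family's UMIs. Of 11 families, 1 had a different leading member in the lines: PDK1 held 38.2% of the PDK1 and PDK3 UMIs in CHLA9 (35.2 to 41.4, Clopper-Pearson) and 68.3% in TC71 (65.5 to 71.1). In the other families the leading gene was shared, but the share of the second gene differed widely in several of them. HK2 held 98.3% of hexokinase UMIs in CHLA9 and 68.8% in TC71, where HK1 supplied 31.2% (28.7 to 33.8). SLC2A1 likewise held 98.3% of the glucose carrier UMIs in CHLA9 and 68.8% in TC71. SLC16A1 held 84.9% of the SLC16A1 and SLC16A3 UMIs in CHLA9 (84.3 to 85.4) and 99.2% in TC71. The monocarboxylate carrier SLC16A7, not in this family, was at 0.103 CPM in CHLA9 and 30.6 CPM in TC71.

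Phosphofructokinase and lactate dehydrogenase were mixed in both lines. PFKP led with 58.7% in CHLA9 and 47.0% in TC71, while PFKM held 17.6% of the family in CHLA9 and 34.7% in TC71. LDHB held 50.5% of lactate dehydrogenase UMIs in CHLA9 (50.3 to 50.6) and 56.6% in TC71 (56.4 to 56.9). BNIP3L led BNIP3 with 69.7% in CHLA9 and 50.9% in TC71 (49.9 to 51.9), where the interval included equal shares. When cells of over 10% mitochondrial UMIs were left out, BNIP3 led in TC71 with 51.6%. Enolase, aldolase, collagen hydroxylase and EGLN families were led by ENO1, ALDOA, P4HA1 and EGLN1 in both lines, with shares of 86.2% to 100%.

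**Figure D2:**
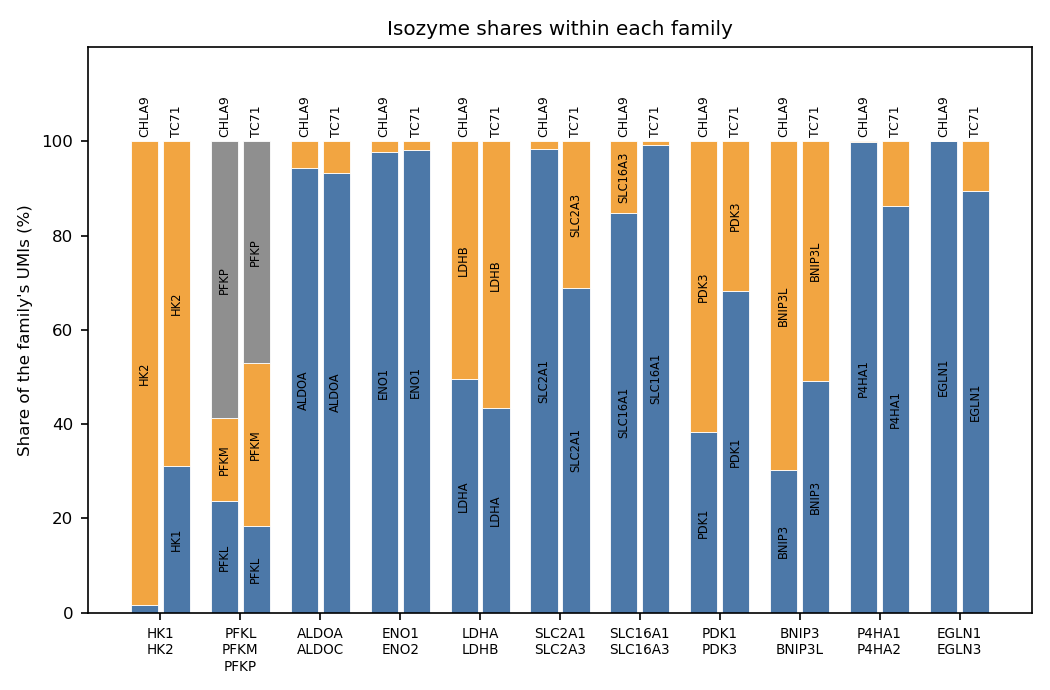
Share of each isozyme in the UMIs of its family, as stacked bars from 0 to 100% for CHLA9 (left) and TC71 (right) in 11 families. Only the PDK1 and PDK3 pair, which leaves out PDK2, changes its leading gene, from PDK3 in CHLA9 to PDK1 in TC71.

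Other genes of the pathways were counted in wider lists. Of 16 further glycolysis and pyruvate genes of at least 10 CPM in a line, 2 were at least 2-fold higher in CHLA9 and 2 in TC71, beside 16.3% and 8.8% of all genes of this level. PFKFB3, which makes an activator of phosphofructokinase, was at 16.6 and 6.44 CPM, and PDK2 at 43.99 and 9.22 CPM. The mitochondrial pyruvate carrier gene MPC1 was at 34.7 and 73.1 CPM. The monocarboxylate carrier SLC16A7 (MCT2) had 18 UMIs in CHLA9 and 1784 in TC71, or 0.103 and 30.6 CPM. Of 21 further HIF pathway and target genes, 3 were at least 2-fold higher in each line, beside the same 16.3% and 8.8%, so that neither list is shown to stand apart. ANGPTL4, STC2 and WSB1 were higher in CHLA9, at 12.2, 25.6 and 131 CPM against 3.46, 4.34 and 32.7 CPM. DDIT4, FAM162A and INSIG2 were higher in TC71, at 23.9, 256 and 21.7 CPM against 8.12, 124 and 9.28 CPM. Of 9 ATF4 target and amino acid stress genes of this level, 1 was at least 2-fold higher in CHLA9 and 4 in TC71, beside 16.3% and 8.8%.

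Cell cycle phases were then assigned from S and G2M marker scores, and none of the 36 genes was among the scoring genes. G1 held 1015 CHLA9 cells (22.4%) and 226 TC71 cells (13.1%), S held 1743 and 834, and G2M held 1766 and 669. A phase is a range of a score, and 12.4% of CHLA9 cells and 21.6% of TC71 cells lay within 0.05 of a boundary. Summed glycolysis in CHLA9 was 7803 CPM in G1, 8138 CPM in S and 7163 CPM in G2M. In TC71 it was 8822 CPM in G1, 8249 CPM in S and 7690 CPM in G2M. The summed glycolysis transcripts were thus lowest in G2M cells of both lines, and highest in S cells of CHLA9 and G1 cells of TC71. The sum does not describe each enzyme, as PFKL, PFKP and ENO2 were lowest in G1 cells of CHLA9.

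Single genes were then compared between G2M and G1 cells at a ratio of 1.2-fold or more. In CHLA9, 6 of 33 genes with at least 20 UMIs were higher and 5 lower in G2M, and of the 23 genes of at least 10 CPM 2 were higher and 3 lower. The backgrounds were 22.1% higher and 21% lower of 16018 genes, and 18.1% and 8.82% of 8621 genes of at least 10 CPM. In TC71, 4 of 34 were higher and 12 lower, and of 25 genes of at least 10 CPM 2 were higher and 7 lower. There the backgrounds were 35.1% and 12% of 14367 genes, and 29.2% and 5.27% of 8153 genes of at least 10 CPM. Between S and G1 cells, 4 of the 23 genes were higher and 1 lower in CHLA9, beside 16.1% and 8.26% of all genes, and 0 of 25 were higher and 4 lower in TC71, beside 14.3% and 4.23%.

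LDHA was lower in G2M than in G1 cells of both lines. Its level in CHLA9 was 1007 CPM in G1, 921 CPM in S and 792 CPM in G2M, and in TC71 it was 1421, 1246 and 1149 CPM. BNIP3 differed between phases in TC71, with 139 CPM in G1 (130 to 148), 78.7 CPM in S and 81.8 CPM in G2M (78.2 to 85.4). In CHLA9 it was at 57.3, 58.6 and 53.7 CPM. The TC71 values include 72 cells rich in BNIP3 (described at the end). Of these 72 cells 31.9% were in G1, against 11.5% of the other TC71 cells. BNIP3 levels by phase without these cells were not taken, so the G1 value need not describe most G1 cells. GAPDH was at 1856, 1585 and 1422 CPM in G1, S and G2M of TC71 and at 2442, 2628 and 2314 CPM in CHLA9. The other genes of at least 10 CPM that were lower in G2M of TC71 were ALDOA, PGK1, PDK1 and MXD4, of which MXD4 had an interval that included 0. Below 10 CPM, HK1, ALDOC, SLC16A3, P4HA2 and ANKRD37 were lower as well, and the intervals of HK1, SLC16A3 and ANKRD37 included 0. EGLN3 and SLC2A3 went the other way there. EGLN3 was at 1.88 CPM in G1 and 4.64 CPM in G2M (log2 ratio 1.30, 0.44 to 2.30), and the interval of SLC2A3 included 0.

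MXD4, whose product opposes MYC at shared DNA sites, showed the widest range in CHLA9 among the genes of at least 10 CPM, at 24.8 CPM in G1 (23.1 to 26.6), 17.9 CPM in S and 14.6 CPM in G2M (13.8 to 15.5). SLC16A3 was at 14.4, 12.9 and 11.6 CPM in the same phases. PFKP and SLC16A1 went the other way, with G2M over G1 ratios of 1.24 and 1.22 in CHLA9. In TC71, HIF1A was at 30.2 CPM in G1 (26.1 to 34.8), 35.2 CPM in S and 43.7 CPM in G2M (41.1 to 46.4), and VEGFA was at 16.9, 16.2 and 23.4 CPM. HIF1A in CHLA9 was at 41.3, 41.6 and 45.1 CPM. Median depth differed between the phases, from 29196 UMIs in G1 to 40896 in G2M of CHLA9 and from 29048 to 37014 in TC71, and its part in these ratios was not tested.

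**Figure D3:**
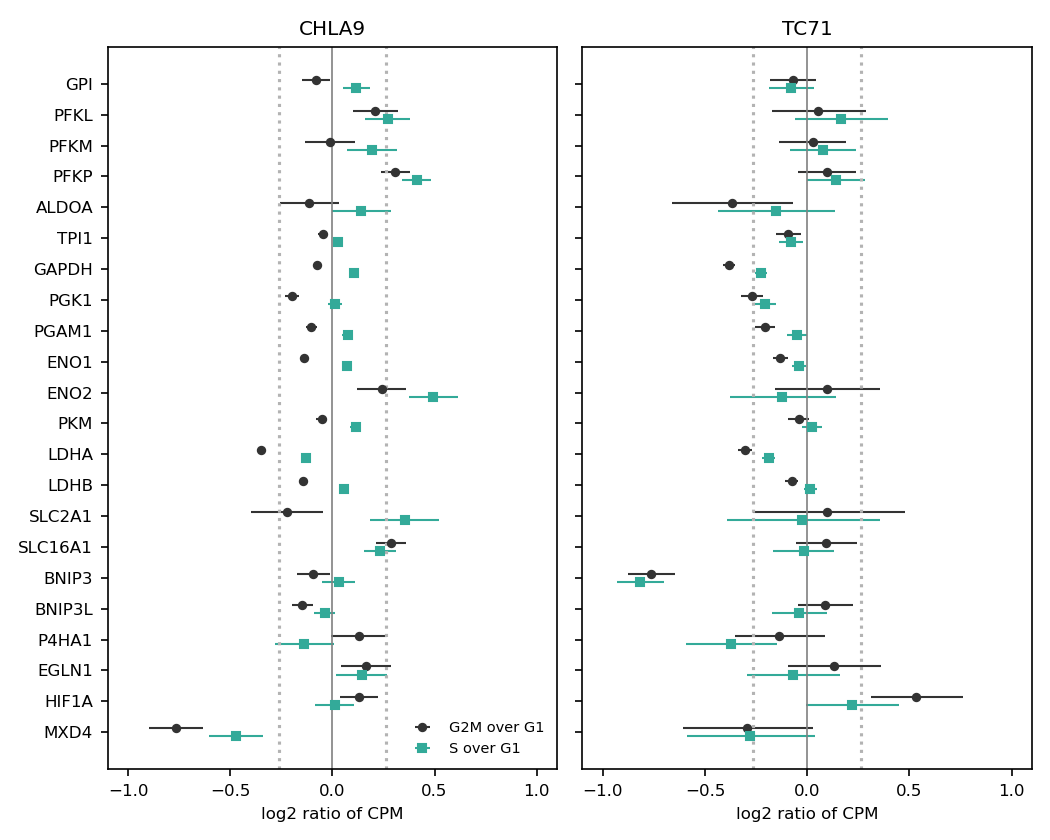
Log2 ratio of G2M over G1 (circles) and of S over G1 (squares) for the 22 genes of at least 10 CPM in both lines, with 95% counting intervals and dotted lines at 1.2-fold. LDHA lies left of 0 in both lines, MXD4 lies farthest left in CHLA9 and BNIP3 farthest left in TC71. The TC71 cells rich in BNIP3, which were more often in G1 than the others, are included.

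Co-variation of the pathways across cells was then compared at equal depth, with each cell thinned to 10000 UMIs. This left 4510 CHLA9 and 1670 TC71 cells. At this depth a median cell held 76 glycolysis UMIs in CHLA9 and 78 in TC71, but 2 hypoxia-induced UMIs in either line. The 95th percentile was 5 hypoxia-induced UMIs in CHLA9 and 8 in TC71. Scores were the mean over the 17 or 13 genes of ln(1 + UMIs per 10000). Spearman's rho of the glycolysis and hypoxia scores was 0.0251 in CHLA9 (4510 cells) and 0.193 in TC71 (1670 cells). Cells of a line share the library and the thinned depth, so these are descriptions without a p-value.

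The scores were also set against themselves in 2 disjoint draws of 5000 UMIs of each cell, which shows how much of a score is not counting noise. The glycolysis score gave a rho of 0.213 between draws in CHLA9 and 0.306 in TC71. The hypoxia score gave 0.0241 in CHLA9 and 0.200 in TC71. A relation to hypoxia genes was therefore not detectable in CHLA9 at this depth. Across draws, glycolysis and hypoxia scores gave 0.139 and 0.187 in TC71 and -0.0174 and 0.0240 in CHLA9.

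Cell state moved with the scores too. In TC71 the glycolysis score had a rho of -0.363 with mitochondrial percent, and the hypoxia score one of -0.164. Within the 557 TC71 cells of lowest mitochondrial percent the 2 scores gave 0.348, in the middle 557 cells 0.0990, and in the 556 cells of highest percent 0.0659. Among the 206 G1 cells of TC71 rho was 0.394, and it was 0.177 in S and 0.177 in G2M cells. In CHLA9 the glycolysis score had a rho of 0.260 with the S score and -0.270 with the G2M score. Against the ATF4 list score, the hypoxia score gave -0.0579 in TC71 and -0.0136 in CHLA9.

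Of single genes, those with a UMI in at least 20% of thinned cells were compared with each score, leaving the gene itself out of its own score. In TC71, 4 of 13 glycolysis enzymes had a rho of at least 0.1 with the hypoxia score, beside 0.418% of 5496 genes. They were PGK1 (0.167), LDHA (0.164), ENO1 (0.144) and PKM (0.131). These 4 had a UMI in 98.3% to 100% of the cells, whereas the background held every gene from 20% up. Counting noise lowers rho more in sparse genes, so the 2 shares are not matched for level. LDHB was at -0.00335 and HIF1A at -0.0233. Of the 4 hypoxia-induced genes frequent enough, 3 passed this value against the remaining ones, namely BNIP3 (0.166), P4HA1 (0.145) and BNIP3L (0.105). In CHLA9 0 of 13 enzymes and 0% of 6146 genes did so. With the glycolysis score, 6 of 13 enzymes in CHLA9 and 7 of 13 in TC71 had a rho of at least 0.1, beside 2.13% and 1.84% of genes.

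The closest pairs in TC71 were GAPDH with LDHA (0.291) and LDHA with BNIP3 (0.224). Of 52 glycolysis and hypoxia-induced gene pairs, 9 reached 0.1 in TC71, beside 0.326% of all gene pairs, and 0 of 39 did so in CHLA9, beside 0.182%. Each of the 9 held BNIP3 or P4HA1, and most held BNIP3. With an enzyme, BNIP3L reached at most 0.0904 and EGLN1 at most 0.0664, both with LDHA. FAM162A, a HIF target of the mitochondrion outside the 36 genes, had a rho of 0.215 with the glycolysis score and 0.114 with the hypoxia score in TC71. The 5 genes outside all lists that were most alike to the glycolysis score in both lines were RPS2, RPL11, RPL19, RPL7A and PFN1, with a lower rho of 0.138 to 0.192 over 4989 genes. For the hypoxia score they were INTS2, ATM, PABPC1, TUBA1A and DHTKD1, at 0.0426 to 0.0509, which in counts this sparse is no finding.

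The spread across cells was then taken gene by gene. The variance of BNIP3 UMIs was 3.85 times its mean across TC71 cells, above 99.7% of 5496 genes, and 1.03 times its mean across CHLA9 cells. LDHA stood at 2.98 in TC71 and 1.503 in CHLA9, PGK1 at 1.98 and 1.095, ENO1 at 1.95 and 1.31, and GAPDH at 2.71 and 1.89. LDHB, although the most abundant of these in TC71, stood at 1.32 and 1.24. The median over all genes was 1.06 in TC71 and 1.05 in CHLA9, close to the value of 1 that counting noise alone gives. For the same relative spread this ratio rises with the mean, so it does not rank genes of unlike level. The mean in TC71 was 0.941 UMIs for BNIP3 and 12.4 for LDHA. P4HA1 (mean 0.286) stood at 1.17 and BNIP3L (mean 0.951) at 1.24 there.

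To see the size of the relation, cells were ranked by the hypoxia score from a draw of 5000 UMIs and cut into 5 equal bins, and levels were read from the other draw. In TC71 the highest bin stood apart from the other 4. BNIP3 was at 42.5, 65.9, 48.5, 71.3 and 232 CPM from the lowest to the highest bin of 334 cells. LDHA was at 1150, 1115, 1110, 1138 and 1657 CPM. PGK1 was at 412, 436, 453, 456 and 646 CPM. In CHLA9 no such step was seen, and bins of 902 cells gave 51.0, 61.4, 55.7, 47.7 and 51.7 CPM for BNIP3 and 908, 895, 894, 907 and 892 CPM for LDHA.

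The interval of the highest over the lowest bin lay above 0 on the log2 scale for 17 of 31 members with more than 3 UMIs in both bins in TC71, beside 3.78% of 10888 genes. In CHLA9 it did so for 3 of 28 members, BNIP3L (122 and 145 CPM) among them, beside 2.5% of 12381 genes. The hypoxia-induced genes form the score that ranked the cells, so their own rise follows in part from the ranking. Such an interval was found for 8 of 10 of them in TC71 and 1 of 8 in CHLA9. Among the glycolysis enzymes, which are outside the score, it was found for 9 of 16 in TC71 and 2 of 15 in CHLA9. In TC71, PDK1 was at 9.58 CPM in the lowest and 31.7 CPM in the highest bin, BNIP3L at 87.4 and 136 CPM, P4HA1 at 22.8 and 43.7 CPM and ENO1 at 1138 and 1496 CPM. LDHB was at 1571 and 1644 CPM, with an interval of the log2 ratio from -0.01 to 0.14. The 17 glycolysis enzymes together went from 7677 to 9460 CPM, or 1.23-fold, and the 12 ATF4 list genes were at 702 and 712 CPM. The highest bin had a median mitochondrial share of 8.38% against 9.21% in the lowest, a median depth of 31727 against 33952 UMIs, and 16.5% against 11.98% of its cells in G1. The part of these differences in the result was not tested.

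**Figure D4:**
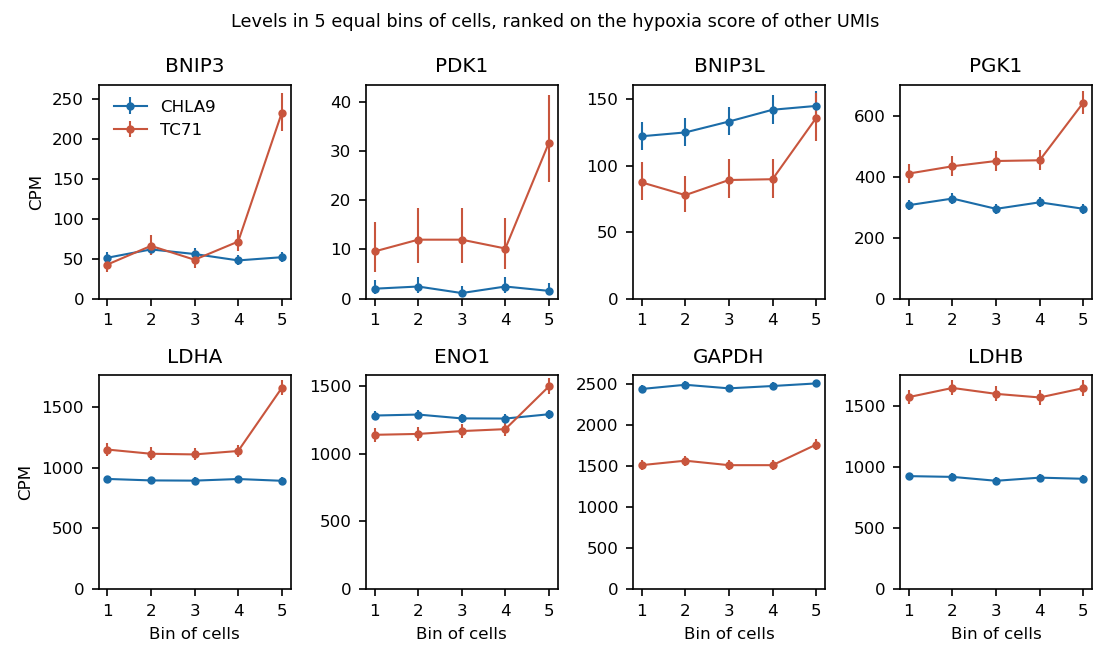
Level of 8 genes, in CPM with 95% Poisson intervals, in 5 equal bins of cells ranked by a hypoxia score from other UMIs of the same cells, for CHLA9 (blue) and TC71 (red). In TC71 the highest bin lies above the others for each gene but LDHB, while in CHLA9 BNIP3, LDHA and PGK1 stay level. BNIP3, PDK1 and BNIP3L are part of the score that ranked the cells.

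BNIP3 counts were then read cell by cell. At 10000 UMIs, 72 of 1670 TC71 cells (4.31%, Clopper-Pearson interval 3.39 to 5.40) held at least 5 BNIP3 UMIs and up to 19, against 3 of 4510 CHLA9 cells (0.0665%, 0.0137 to 0.194). The share of cells with 0 BNIP3 UMIs was close, at 55.4% and 57.8%. The limit of 5 was set after the counts were seen, and 21 TC71 cells held 4 UMIs and 17 held exactly 5. Scrublet called 0 of the 72 cells a doublet, and 12 of the other 1598 cells.

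In these 72 cells most other genes of glycolysis and hypoxia were higher, but LDHB, PFKM and HIF1A were not clearly so. EGLN3, SLC16A3, ADM, NDRG1 and CA9 had 0 to 3 UMIs in these cells, too few to tell. BNIP3 chose the cells and is left out, and the values of the other genes are a description. PGK1 was at 1178 CPM (1100 to 1260) against 449 CPM in the other TC71 cells, LDHA at 2817 CPM (2695 to 2942) against 1165 CPM, ENO1 at 2283 against 1187 CPM and GAPDH at 2447 against 1528 CPM. PDK1 was at 73.6 CPM (55.1 to 96.3) against 11.8 CPM, P4HA1 at 114 against 24.7 CPM and VEGFA at 48.6 against 18.4 CPM. SLC2A1, which was close in both lines, was at 40.3 CPM (27.0 to 57.8) against 12.3 CPM. LDHB was at 1571 CPM (1481 to 1665) against 1602 CPM, and HIF1A at 37.5 CPM (24.7 to 54.6) against 36.3 CPM.

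Over the 17 enzymes the level was 13306 CPM in the 72 cells and 7889 CPM in the others, a ratio of 1.69 (1.65 to 1.72). Of 13 members of at least 50 CPM other than BNIP3, 8 were at least 1.5-fold higher, beside 1.69% of 3137 genes. Of the 29 members with at least 40 UMIs, 26 had an interval above 0 and 3 (PFKM, LDHB and HIF1A) an interval that included 0, where the interval lay above 0 for 7.98% of 9866 genes. ALDOC, at 10 and 12 UMIs, was at 13.9 CPM against 0.751 CPM, and EGLN3, at 1 and 61 UMIs, at 1.39 against 3.82 CPM. In the wider lists, the interval lay above 0 for 16 of 26 HIF genes and below 0 for 2, and above 0 for 3 of 17 glycolysis genes. Genes of the wider lists, named here after their values were seen, included the HIF targets DDIT4 (168 against 17.9 CPM), MIR210HG (69.4 against 4.19 CPM), STC1 (44.4 against 2.88 CPM) and PFKFB4 (26.4 against 1.38 CPM). The 72 cells had a lower median mitochondrial share (6.07% against 9.15%), a lower median depth (28234 against 33984 UMIs) and more G1 cells (31.9%, 21.4 to 43.99, against 11.5%), and the part of these in the result was not tested. Without the 72 cells, rho of the 2 scores in TC71 was 0.0940, and with all cells but BNIP3 left out of the score it was 0.153.

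**Figure D5:**
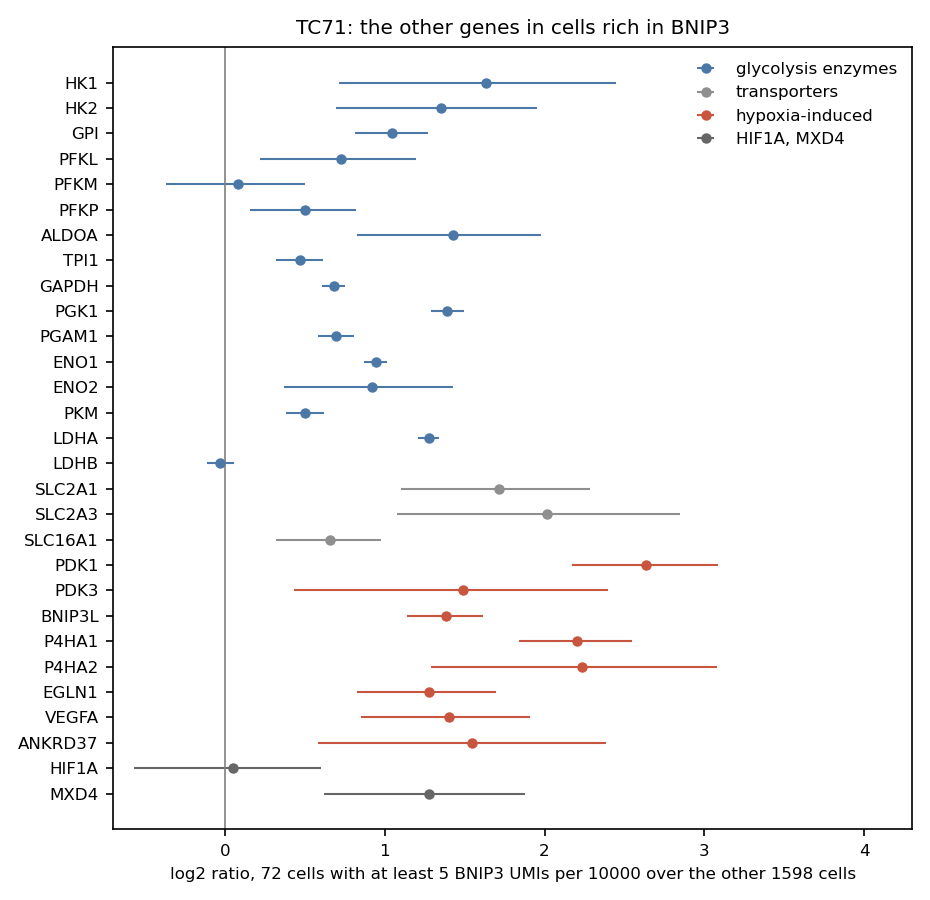
Log2 ratio of the level in the 72 TC71 cells with at least 5 BNIP3 UMIs per 10000 over the other 1598 cells, with exact 95% counting intervals, for the 29 other genes with at least 40 UMIs. PDK1 lies highest among them at 6.22-fold, while PFKM, LDHB and HIF1A have intervals that include 0.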

How the data were processed

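Single-cell 3′ libraries (10x Genomics) of CHLA9 and TC71 were counted by the authors with Cell Ranger 3.1.0 on hg38, per the labels and the submitters' processing notes. The deposited values are raw UMI counts per gene and barcode, not normalized. CHLA9 was also resequenced, per the study's methods. Reads matching more than 1 gene are not counted, and 8 members overlap a gene on their own strand.

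Cells were kept as in the report, with no outlier step and no doublet removal (Scrublet in scanpy 1.11.5 called 6.06% and 0.694%). Counts were summed per line or phase and divided by all UMIs. Background shares are over all genes above the stated limit and are not matched to the members for level. Intervals are exact at 95% (Poisson, Clopper-Pearson, or binomial for ratios), cover counting error only, and a count of 0 was set to 3 counts. With 1 library per line no test was run. Phases came from CellCycleScoring in Seurat 5.3.0 (R 4.3.3) on genes in at least 10 cells. Cells were thinned without replacement (seed 1), and 14 CHLA9 and 59 TC71 cells under 10000 UMIs were left out. Gene positions are from GENCODE 44. The 2-fold call between lines recovered 100% of 200 genes of at least 10 CPM changed 3-fold in data simulated from each line's profile. The simulation held counting noise only, and it did not cover genes of lower level, phase ratios or bins.

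The members and lists were chosen with earlier results of these data known. All 36 members were named. Other genes were named if in a wider list and 2-fold apart at 10 CPM or more, or among the 5 genes most alike to a score. Exceptions are stated in the report. Alternatives covered cells, scaling, thinning, score lists, phase scoring and low levels.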

Additional observations from a re-analysis of the deposited data

Results flagged for a closer look

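ALDOC differed in opposite directions between phases in the 2 lines. The log2 ratio of G2M over G1 was 0.71 in CHLA9 and -1.12 in TC71, from 184 and 72 UMIs over all phases, and ALDOC shares its strand with the overlapping gene SGK494. This difference was not tested.

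Barcodes under 5000 UMIs, left out of every comparison, also carried these transcripts. In 5869 such TC71 barcodes (median 1170 UMIs) the 17 glycolysis enzymes were at 7071 CPM (7015 to 7126) and the 13 hypoxia-induced genes at 312 CPM (300.3 to 323.6), against 8076 and 291 CPM in the kept cells. In 277 such CHLA9 barcodes the same sums were 1803 and 84.6 CPM, with 60.1% mitochondrial UMIs against 15.5% in TC71.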

How the results depend on the processing

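No paired analysis was possible because CHLA9 and TC71 gave 1 library each, without replicates. Of 93 alternative values of the main counts and correlations, 82 stayed within 1.5 times or within 0.1 of rho. The limit of 0.1 is wide beside the CHLA9 rho of 0.0251, and all 18 CHLA9 alternatives stayed within it. In TC71 the change from 0.193 to 0.0940 also counted as staying. With members of at least 10 CPM only, 1 and 3 genes were 2-fold higher in CHLA9 and TC71 (3 and 8 without that limit), 2 and 3 were higher and lower in G2M of CHLA9 (6 and 5), and 2 and 7 in TC71 (4 and 12), since fewer genes were counted. With at most 10% mitochondrial UMIs, 2 families changed their leading gene. With mitochondrial and ribosomal protein genes left out of the totals, 3 were higher in G2M of CHLA9, and 7 were lower in G2M of TC71 when phases were scored on all genes. The cause was not tested. In TC71, rho was 0.409 by Pearson and 0.394 in G1 cells. It ranged from 0.0940 to 0.409 over all alternatives in TC71 and from -0.0169 to 0.0620 in CHLA9. Alternatives added after seeing the data gave 0.153 without BNIP3 in the score, 0.0940 without the BNIP3-rich cells and 0.114 without mitochondrial and ribosomal protein UMIs in TC71. Of 264 values of single members, 71 moved past the counting interval, 15 changed sign and 1, HK2, crossed 2-fold (log2 1.00 by median of ratios). The hypoxia genes' few UMIs per cell limit what CHLA9 can show.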
